A study of Drosophila melanogaster with 3 samples.

Results

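The cytoplasmic ribosome of Drosophila melanogaster is built from proteins that are encoded by genes with the symbols RpL and RpS, and the binding of the zinc-finger protein CG5245 at their promoters is described here. The genes were taken from the Ensembl gene models by name: protein-coding genes on the 6 main chromosome arms whose symbol begins with RpL, RpS or RpLP and a digit, together with sta, which encodes a protein of the small subunit. This gave 93 of 13945 protein-coding genes, 54 for the large and 39 for the small subunit. Of these, 19 lie on arm 2L, 21 on 2R, 14 on 3L, 23 on 3R, 1 on chromosome 4 and 15 on X. The rule used the names alone and no measured value. The binding data are chromatin immunoprecipitation and sequencing of 3 biological replicates, all from a single group of whole embryos. They were of both sexes and 0 to 16 h old, and they carried a transgene for CG5245 with eGFP at its C terminus. The labels' description says that an antibody against GFP was used, while their antibody field reads CG5245. No other genotype, tag-only sample or stage was compared, and the control chromatin was not analysed here.

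Each ribosome holds a single copy of most of its proteins, and growing cells make the components of both subunits in matched amounts. Small-subunit proteins surround the decoding centre, where the messenger RNA is read, and large-subunit proteins surround the site of peptide bond formation and the exit tunnel. In flies many of these genes start transcription within a stretch of pyrimidines, the TCT initiator, instead of the more common initiator and TATA box. Loss of a single copy of many of them gives the Minute phenotype of slow development and thin bristles.

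The authors' lists give each bound region a summit and a signal, a score from their peak caller. Ranks and signals are therefore theirs, and rank 1 is the region of highest signal in a list. The reproducible set on the dm6 assembly holds 3670 peaks, which are the first 3670 regions of the list called on all replicates together. To compare replicates, the 3670 regions of highest signal in each replicate's own list were used and are called its top regions. A gene was counted as occupied if a summit fell no more than 500 bp from any of its transcription start sites (TSSs), and its strongest such summit was taken. The files hold no read counts, so sequencing depth is unknown. Regions under a summit are ranked on a common footing only within a list, and the lists of the replicates are nearly equal in length, with 30000, 30000 and 29608 regions.

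CG5245 was found at ribosomal protein promoters more often than at those of other genes. The reproducible set put a summit at 59 of 93 of these genes (63.4%) and at 2151 of the 13852 other genes that code for proteins (15.5%). The share over all protein-coding genes was 15.8%. A pooled candidate region of any rank was present at 84 of 93 ribosomal protein genes (90.3%), whereas 51.2% of all protein-coding genes had one. The occupied share of 63.4% came to 39.8% when a peak had to overlap top regions of all 3 replicates, against 10.5% of other genes. It was 41.9% without replicate 1 and 43.0% without replicate 2 (peaks in the top regions of the others). These settings accept fewer peaks. The occupied genes were spread over both subunits and every arm: 36 of 54 large-subunit genes (66.7%) and 23 of 39 small-subunit genes (59.0%). On X, 13 of 15 were occupied, against 10 of 19 on 2L, 11 of 21 on 2R, 10 of 14 on 3L, 14 of 23 on 3R and the single gene, RpS3A, on chromosome 4. Over all protein-coding genes the shares were 13.5% on X, 15.8% on 2L and 14.6% on 2R. They were 17.05% on 3L, 17.8% on 3R and 5% on chromosome 4.

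The same excess stood in each replicate's own list. In replicate 1, 62 of the 93 genes (66.7%) had a summit in the top regions. The share was 16.2% among other genes and 16.5% among all protein-coding genes. Replicate 2 had 54 (58.1%), against 15.1% of other genes and 15.4% of all. Replicate 3 had 43 (46.2%), against 14.9% of other genes and 15.1% of all. The ribosomal protein share was thus lower in replicate 3 than in replicate 1, while that of other genes stayed within a narrow range. The mean share was 57.0% ± 10.3 for ribosomal protein genes and 15.4% ± 0.672 for other genes (SD, n = 3). The difference was 50.5, 43.0 and 31.3 percentage points in replicates 1, 2 and 3, a mean of 41.6 ± 9.67 (SD, n = 3). An exact 2-sided sign-flip permutation test over the replicates gave p = 0.25, which is the smallest value that 3 replicates allow. A reproducible peak that overlapped top regions of all 3 replicates lay at 37 ribosomal protein genes (39.8%), against 1454 other genes (10.5%) and 10.7% of all protein-coding genes. Counted by summits, 20 ribosomal protein genes (21.5%) were in the top regions of 2 replicates, 8 (8.60%) in those of 1, and 28 (30.1%) in none. The shares of other genes were 4.30%, 6.35% and 78.9% in that order.

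**Figure D1:**
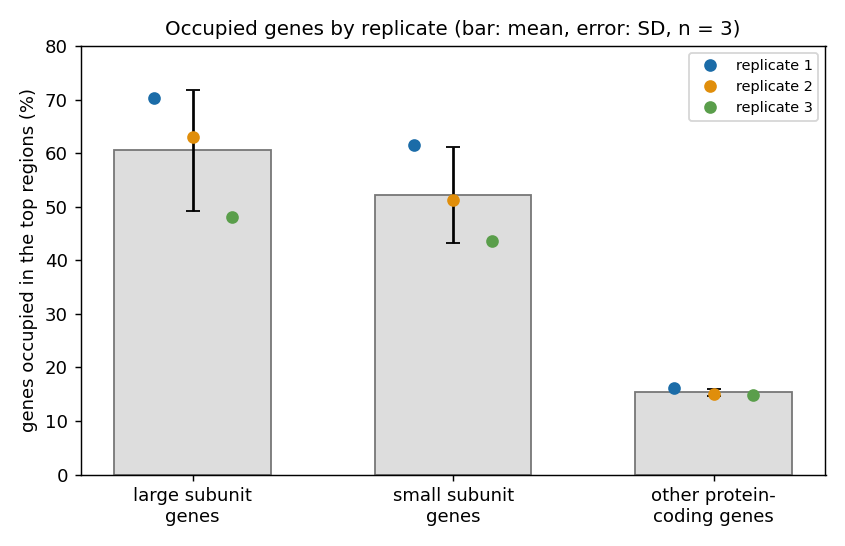
Percentage of genes occupied in the top regions of each replicate, for 54 large-subunit genes, 39 small-subunit genes and 13852 other protein-coding genes. Bars are means and error bars SD over 3 replicates; points are the replicates, with replicate 1 highest and replicate 3 lowest in each group.

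Large-subunit genes were occupied somewhat more often than small-subunit genes, but the size of this difference varied with the setting. Large-subunit genes were occupied at 70.4%, 63.0% and 48.1% in replicates 1, 2 and 3, against 61.5%, 51.3% and 43.6% of small-subunit genes. The difference was 8.83, 11.7 and 4.56 percentage points, a mean of 8.36 ± 3.58 (SD, n = 3; exact sign-flip permutation p = 0.25, the smallest possible). At this setting its direction was the same in 3 of 3 replicates. In the reproducible set it was 7.69 points, and it came to 2.28 points (22 of 54 large-subunit and 15 of 39 small-subunit genes) when a peak also had to overlap top regions of all 3 replicates. Averaged over the replicates it was 2.42 points with the nearest TSS alone (exact sign-flip permutation p = 0.5), 4.70 points with a window of 1000 bp (p = 0.5 by the same permutation test) and 0.665 points with 2 times as many top regions (p = 0.75 by the same permutation test). In these 3 settings the replicates did not all have the same sign. Among genes with a candidate region the median rank of large-subunit genes was 1350.5, 2232 and 2340, against 2162.5, 2902 and 3562 for small-subunit genes. The large-subunit median thus stood nearer the top of the list in every replicate (difference −901 ± 287 ranks, SD, n = 3; exact sign-flip permutation p = 0.25).

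RpS27, a zinc-binding protein of the small subunit, had the highest signal of all ribosomal protein genes. Its summit ranked 49, 157 and 223 in replicates 1, 2 and 3 and 96 in the reproducible set, with a signal of 563. RpL7, a large-subunit protein, came next with ranks of 45, 190 and 358, a rank of 107 in the reproducible set and a signal of 540. These stood apart from the other members. RpL41, the shortest protein of the ribosome, followed at rank 266 (145, 462 and 471 in the replicates; signal 370). RpL32, whose transcript is a common standard in fly expression assays, was at rank 286 (318, 217 and 439; signal 360). Next came RpS21 at rank 432 (337, 769 and 514; signal 306), RpL34b at rank 436 (214, 676 and 859) and RpLP0 at rank 441 (226, 488 and 1121). RpS27 was the only ribosomal protein gene among the 100 strongest peaks, and 22 of these genes lay among the 1000 strongest. The occupied genes had a median signal of 173 and a range of 96.9 to 563, against a median of 157 and a range of 92.4 to 2002 for other occupied genes.

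Sequences at 4 of the highest-ranked summits are shown, since they are sites on which these ranks rest. Coordinates are on dm6, each run reads in the direction of transcription of its gene, and exons were removed from the 101-base window around the summit. RpL41 is not printed. RpL7 is left out because only 9 bases of its window lay outside exons. The 11 bases centred on the summit are in capitals. For RpS21 the summit fell 5 bp into the first exon, so no capitals appear. RpS27 is from chr3R:25247515-25247580 (minus strand), RpL32 from chr3R:30046275-30046375 (minus strand), RpS21 from chr2L:2856025-2856069 (plus strand) and RpL34b from chr3R:9401227-9401321 (minus strand).
RpS27: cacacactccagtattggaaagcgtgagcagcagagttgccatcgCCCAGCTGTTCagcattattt
RpL32: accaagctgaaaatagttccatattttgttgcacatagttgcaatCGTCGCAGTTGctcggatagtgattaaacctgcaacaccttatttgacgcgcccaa
RpS21: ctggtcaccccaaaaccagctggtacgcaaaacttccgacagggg
RpL34b: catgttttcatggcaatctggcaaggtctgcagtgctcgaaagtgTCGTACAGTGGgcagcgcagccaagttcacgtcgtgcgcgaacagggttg
The letters CAGCTG, an E-box, stood under the summit of RpS27 and also in the printed part of RpS21. Neither RpL32 nor RpL34b had them within 50 bp of its summit.

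The other genes of the leading 12 were RpL23A, RpS4, RpL13A, RpS25 and RpL14. RpL23A, which sits at the mouth of the exit tunnel, ranked 485 in the reproducible set, with 235, 550 and 1453 in the replicates. RpS4 ranked 522 (201, 982 and 1198) and RpL13A 525 (260, 633 and 1821). All had their best rank in replicate 1 and their lowest in replicate 3. RpS25 ranked 558 with 257, 807 and 1611, the same order. RpL14 ranked 622 on the strength of replicates 1 and 2 (220 and 686), and was at 6606 in replicate 3, outside its top regions.

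**Figure D2:**
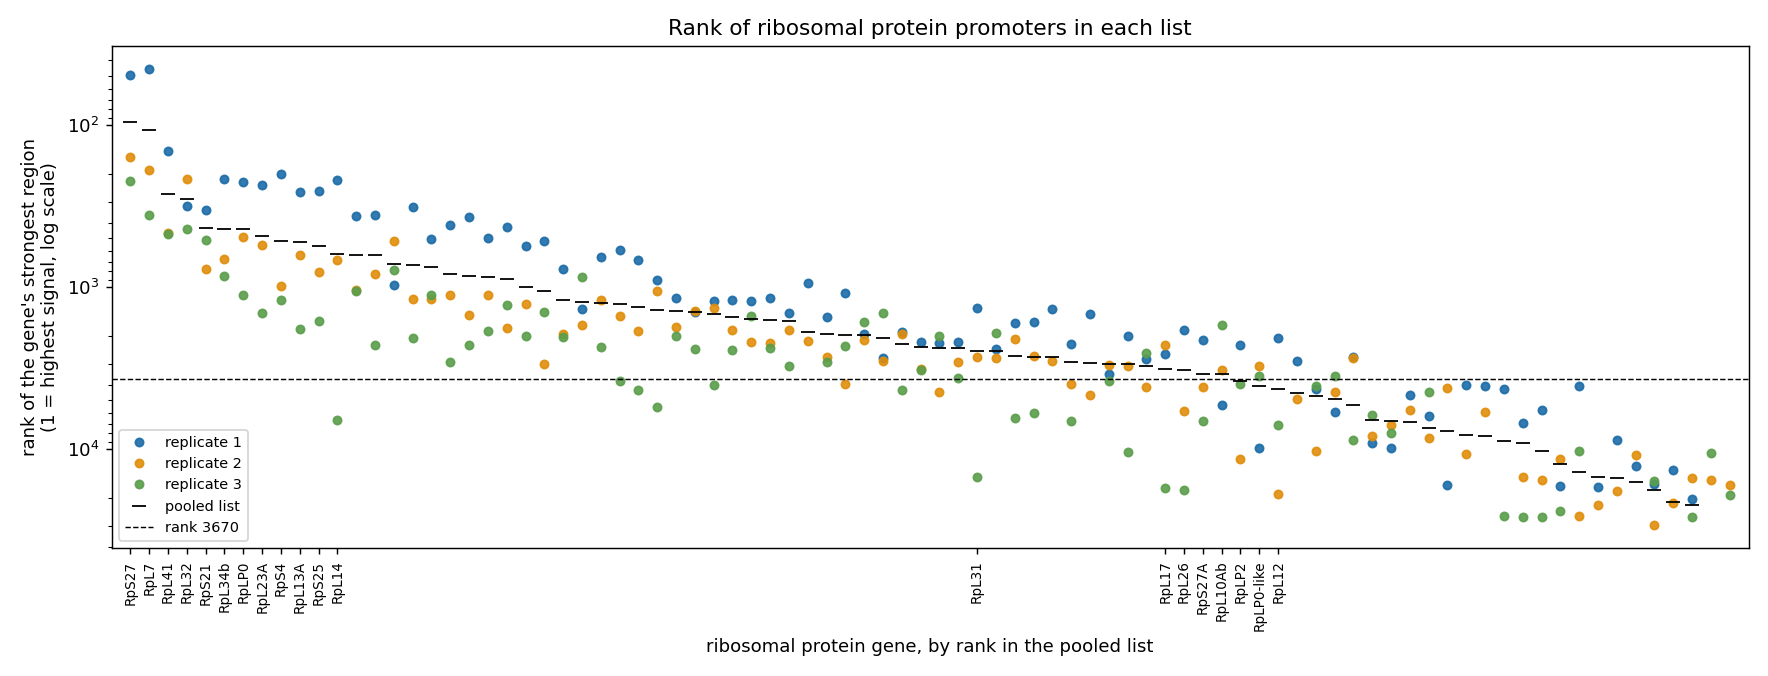
Rank of the strongest region at each of 86 ribosomal protein genes with a region in any list, on a reversed log axis, ordered by the pooled rank (black dashes). Names are given for the 12 genes of highest signal, those nearest the edge of the reproducible set and those whose ranks spread most. Points are replicates 1, 2 and 3; the dashed line is rank 3670, above which a region is in the reproducible set or a replicate's top regions. Most points of replicate 1 lie above those of replicate 3.

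Replicates agreed on the order of the genes better than on their standing. Across the 71 ribosomal protein genes with a region in all 3 lists, ranks correlated with a Spearman rho of 0.902 between replicates 1 and 2, 0.688 between 1 and 3 and 0.713 between 2 and 3. These are descriptions across genes that share the same libraries. The best of a gene's 3 ranks was in replicate 1 for 50 of the 71 (70.4%), in replicate 2 for 9 and in replicate 3 for 12. Among 4597 other genes the best rank was in replicate 1 for 36.6%. The lowest rank was in replicate 3 for 47 of the 71 (66.2%), against 37.1% of other genes. Large-subunit genes had their best rank in replicate 1 in 33 of 41 cases (80.5%), and small-subunit genes in 17 of 30 (56.7%).

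Of 72 ribosomal protein genes with a region in both lists, 57 (79.2%) stood higher in replicate 1 than in replicate 3, against 52.7% of 5190 other genes. The median log2 ratio of the ranks, replicate 3 over replicate 1, was 1.50 for ribosomal protein genes and 0.06 for other genes. Ribosomal protein genes also ranked nearer the top, where a given number of places is a larger ratio. Their median rank was 1594, 2703 and 2887.5 in replicates 1, 2 and 3, a mean of 2395 ± 700 (SD, n = 3), against 6964, 7132 and 6954 for other genes with a region. This median varied more between replicates for ribosomal protein genes than for other genes (SD 700 against 100). It rests on far fewer genes, however, and the spread of single genes was not compared with that of other genes. By median rank replicate 1 was the farthest from the others, and by the correlation of ranks and the occupied share replicate 3 was. With 1 group and no read depth, a difference between the embryo collections and a difference between the libraries cannot be told apart.

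**Figure D3:**
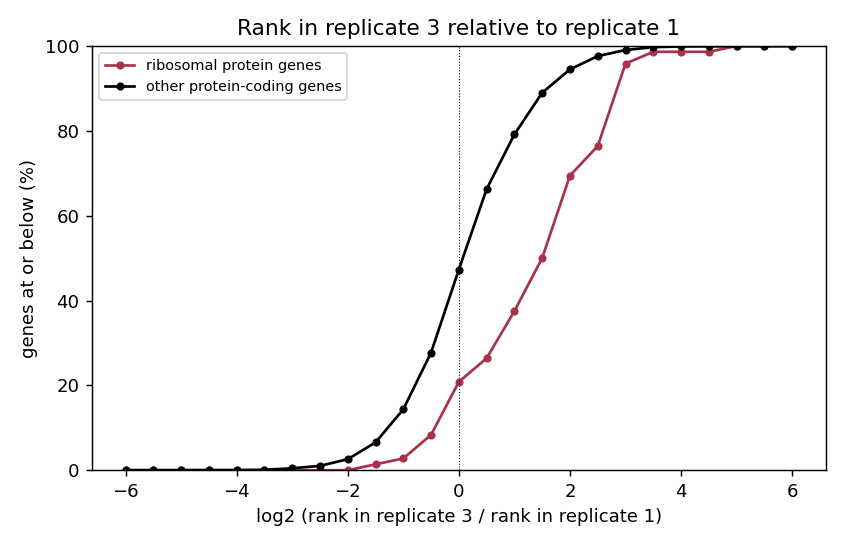
Cumulative percentage of genes by the log2 ratio of rank in replicate 3 to rank in replicate 1, for 72 ribosomal protein genes and 5190 other protein-coding genes with a region in both lists. Values above 0 mean a higher standing in replicate 1; the curve of ribosomal protein genes is shifted to the right, with a median of 1.50 against 0.06.

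The genes whose ranks spread most were all of the large subunit. RpL14 had an SD of 2.50 on the log2 rank scale. RpL31 ranked 1342, 2696 and 14886 in replicates 1, 2 and 3 (SD 1.79), RpL17 2576, 2272 and 17306 (SD 1.64), and RpL26 1830, 5835 and 17799 (SD 1.64). In these genes replicate 3 was the low one. RpL12, which binds near the stalk base, ranked 2068, 18929 and 7125 (SD 1.60), and there replicate 2 was low.

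At the edge of the reproducible set, the last members inside were RpL26 at rank 3260 (signal 101), RpS27A at 3428 (97.0) and RpL10Ab at 3436 (96.9). The first members outside were RpLP2 at pooled rank 3790 (90.6), RpLP0-like at 4056 (86.5) and RpL12 at 4281 (83.1). The signals on the 2 sides of the edge differ by little, so the count of 59 depends on where the authors' threshold fell. Of the 34 genes that were not occupied, 25 had a pooled candidate region of lower rank and 9 had none.

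Proteins that act together did not share a status. RpLP0, RpLP1 and RpLP2 form the stalk of the large subunit that recruits elongation factors. RpLP0 was occupied at rank 441, whereas RpLP1 was a candidate at pooled rank 5325 (2686, 2757 and 8836 in the replicates) and RpLP2 at 3790 (2294, 11524 and 3991). RpL5 and RpL11 bind the 5S ribosomal RNA as a pair. RpL11 ranked 890 in the reproducible set (429, 1792 and 1298), and RpL5 had a pooled rank of 16069, with 12802 and 10820 in replicates 1 and 2 and no region in replicate 3. Both groups thus held a strongly ranked gene beside weaker ones.

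RpS27A and RpL40 are made as fusions with ubiquitin. RpS27A was occupied at rank 3428 (2128, 4112 and 6695), and RpL40 had no pooled candidate, with regions only at 16624 in replicate 2 and 19187 in replicate 3. RpS6, the small-subunit protein phosphorylated by S6 kinase, ranked 2982 and was nearly level across replicates (3427, 3023 and 3822). The gene sta, the fly form of the laminin-receptor protein of the small subunit, ranked 1531 (1198, 1850 and 2459).

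Genes without a lettered, numbered or -like copy made up 21 of the 34 that were not occupied, 12 of the large and 9 of the small subunit. Of these, 10 large-subunit and all 9 small-subunit genes had a pooled candidate of lower rank. RpS3, which lines the entry of the messenger RNA channel, had a pooled rank of 17880 and ranks of 16508, 29445 and 15731 in replicates 1, 2 and 3. RpS24 had the lowest pooled rank of the family, 22271 (20422, 15152 and 26361), and RpL6 was at 21183 with no region in replicate 3. These genes were weak in every replicate.

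Others were only partly weak. RpS9 was at pooled rank 8350 (4089 and 5937 in replicates 1 and 2, none in replicate 3), and RpS2 at 6834 (4650 and 5706, none in replicate 3). RpL10, which helps to form the peptidyl transferase region, was at 7682 (16623 and 4198, none in replicate 3). RpL3, close to the peptidyl transferase centre, was occupied at rank 2257 (1906, 1948 and 4349), and RpS23, at the decoding centre, at rank 1600 (1173, 2202 and 2367). RpL4, which reaches into the exit tunnel, was occupied at rank 871 (499, 1125 and 1871). These genes were chosen after their values were seen, and they included both occupied and weakly ranked genes.

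No region in any of the 4 lists lay at 7 genes: RpL10Aa, RpL21, RpL22-like, RpL37-2, RpS19b, RpS28-like and RpS5b. All but RpL21 are further copies of a duplicated gene. RpL21 is the only copy of its gene in this set, at chr2L:22247111-22247875 on the minus strand. Of these, RpL22-like is known from the testis, and RpS5b and RpS19b from the germline. Regions that the lists do not hold may lie below the authors' calling threshold.

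Duplicated genes showed a regular pattern. The 93 genes hold 13 families with more than a single gene, 27 genes in all, and each family had at least 1 occupied member. Only in the RpL34 family was every member occupied, RpL34b at rank 436 and RpL34a at rank 1409. In the other 12 families a single copy was occupied, so 14 of the 27 genes were, and 7 of the 27 had no pooled candidate. The copies that were occupied are RpL7, RpLP0, RpL24, RpS28b, RpL22, RpS10b, RpS5a, RpS15Aa, RpL37-1, RpS19a, RpS14b and RpL10Ab beside the RpL34 pair. Of these, RpS5a ranked 1421 (1436, 1400 and 2410 in the replicates), RpS10b 1210 (769, 1954 and 2036) and RpS28b 826 (413, 1123 and 2893). RpS19a ranked 2672 (1669, 2090 and 6459) and RpL37-1 2478 (2400, 2724 and 1930).

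The partners that were not occupied had lower ranks or no region. RpS10a had a pooled rank of 12386, RpS15Ab of 6569 against 1461 for RpS15Aa, and RpS28a of 4881. RpL7-like, related to the yeast assembly factor Rlp7, was at 13813 against 107 for RpL7. RpLP0-like, related to yeast Mrt4, was at 4056, and RpL24-like, related to yeast Rlp24, had regions only at 15582 in replicate 2 and 10573 in replicate 3. RpS14a and RpS14b lie 220 bp apart on X and encode the same protein, at pooled ranks of 4511 and 2921. In replicate 1 they were close, at 2857 and 2257, both in the top regions. How reads that fit both copies were handled is not given in the sources used here, so the assignment between the 2 is uncertain. Of the 23 genes named as lettered copies, numbered copies or -like genes, 10 were occupied (43.5%), against 49 of the other 70 (70.0%).

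The summit at ribosomal protein genes lay close to the TSS. Offsets are signed along transcription, minus being upstream. In the reproducible set the median was −20 bp (quartiles −49.5 and −3, range −321 to 41) at 59 ribosomal protein genes, against −134 bp (quartiles −222.5 and −57) at 2151 other occupied genes. Within 50 bp of the TSS were 46 of the 59 (78.0%), against 15.5% of the others. Upstream were 47 of the 59 (79.7%), against 88.5%. By location, 38 summits lay outside the gene and 21 in an untranslated exon.

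The shift held in each replicate. The median offset at ribosomal protein genes was −19, −41 and −35 bp in replicates 1, 2 and 3, against −123, −135.5 and −141 bp at other genes. The means were −31.7 ± 11.4 and −133 ± 9.22 bp (SD, n = 3), and the difference of 101.5 ± 6.14 bp had the same sign in 3 of 3 replicates (exact sign-flip permutation p = 0.25, the smallest possible). The share within 50 bp was 80.6%, 55.6% and 53.5% for ribosomal protein genes, against 18.8%, 14.5% and 13.8% for other genes. Replicate 1 had the summits nearest the TSS as well as the best ranks. Where each summit was given only to its nearest TSS, the means were −25.7 and −97.3 bp and the difference 71.7 ± 8.14 bp (SD, n = 3).

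**Figure D4:**
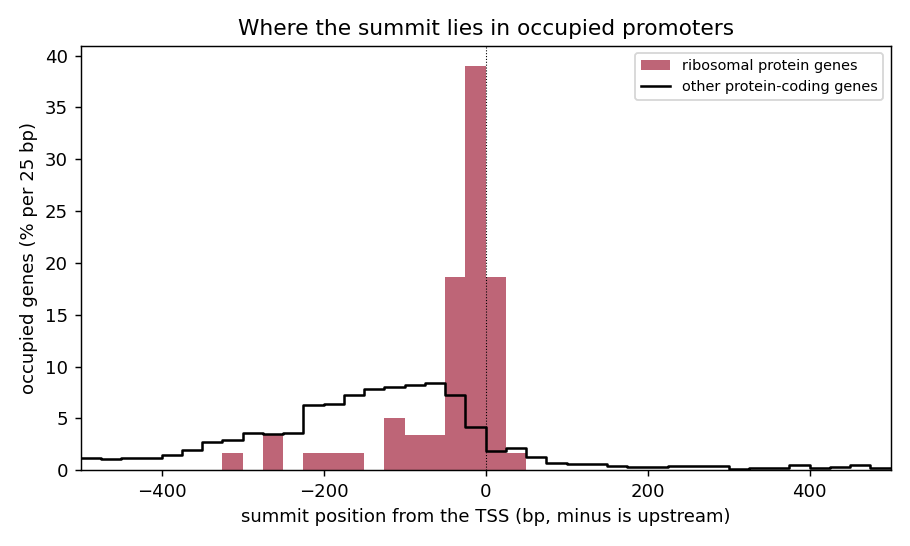
Position of the strongest summit relative to the TSS in the reproducible set, in bins of 25 bp, as a percentage of 59 occupied ribosomal protein genes (filled) and 2151 other occupied protein-coding genes (line). The filled bars pile up next to the TSS, with a median of −20 bp, and the line is broad and centred farther upstream, with a median of −134 bp.

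Small-subunit genes were the more tightly placed: 21 of 23 had the summit within 50 bp (91.3%), against 25 of 36 large-subunit genes (69.4%). The 9 summits over 100 bp away were all upstream, and 8 of them were at large-subunit genes. Among them were RpL23 at −321 bp, RpL10Ab at −259 bp, RpS20 at −212 bp, RpL18 at −196 bp, RpL32 at −164 bp, RpL23A at −110 bp, RpL17 at −107 bp and RpL34a at −106 bp. At 37 ribosomal protein genes that were in the top regions of all replicates, the 3 summits spanned a median of 34 bp, against 43 bp at 1442 other genes. The span was within 50 bp at 25 of the 37 (67.6%), against 57.0%.

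At 5 of these distant summits a gene on the other strand had the nearer TSS. The summit assigned to RpL18 was 196 bp from its TSS and 81 bp from that of Neos. For RpS20 the distances were 212 bp and, to CG17271, 121 bp. RpL32 stood 164 bp away with CG7943 at 145 bp, and RpL23 stood 321 bp away with CG13531 at 235 bp. These 5 peaks could belong to either gene. In all, 29 of the 59 occupied genes had another protein-coding TSS within 500 bp of the summit and 30 had none.

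Ribosomal protein genes often have a neighbour transcribed away from them. A divergent protein-coding TSS lay within 1000 bp of 56 of the 93 (60.2%), against 36.2% of all protein-coding genes. Of those 56, 40 were occupied (71.4%), against 19 of the other 37 (51.4%). Over all protein-coding genes the shares were 28.6% with such a neighbour and 8.62% without. Both classes of ribosomal protein gene thus stood above the same class of all genes, and the part of the neighbours in the occupancy was not tested further. Genes with a small nucleolar RNA between their start and end were occupied in 23 of 29 cases (79.3%), against 36 of 64 without (56.3%). Of the 23 lettered, numbered or -like copies, of which 10 were occupied (43.5%), only RpS5a and RpL10Ab held such an RNA. The contrast therefore overlaps with copy status, and the part of each was not tested. The share among all protein-coding genes with such an RNA was not counted.

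Motifs were counted within 50 bp of the summit on both strands, at 59 ribosomal protein summits and 1636 other promoter summits of the reproducible set. The background is the same 101-base window at 19253 TSSs of all protein-coding genes. The DNA replication-related element TATCGATA, the site of the factor Dref, was at 12 ribosomal protein summits (20.3%), against 3.18% of other promoter summits. It was at 4.48% of all TSSs and 12.7% of 158 TSSs of ribosomal protein genes. The letters CGATA, bound by BEAF-32 and contained in the DRE, were at 28 summits (47.5%) against 22.2%, and outside a DRE at 33.9% against 20.6%. All TSSs had CGATA in 23.6% of cases and ribosomal protein TSSs in 36.1%. GGTCACAC, the core of Motif 1 that M1BP binds, was at 5 summits (8.47%) against 1.41%, with 4.68% of all TSSs. It was at 10.8% of ribosomal protein TSSs, so it was no more common at the bound summits than at the TSSs of the family.

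Other promoter words were as common or rarer. CAGCTG was at 8.47% of ribosomal protein summits and 5.87% of other promoter summits, with 8.77% of all TSSs. GAGAG, bound by GAGA factor, was at 5.08% against 10.1%, with 12.7% of all TSSs. The TATA box TATAAA was at 5.08% against 18.5%, with 15.5% of all TSSs and 2.53% of ribosomal protein TSSs. A matching word is a description of the window and does not show a bound factor.

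In the replicates' top regions the DRE was at 22.6%, 16.7% and 14.0% of ribosomal protein summits, against 3.71%, 3.07% and 2.96% of other promoter summits, a mean difference of 14.5 ± 4.01 percentage points. It was 22.7 ± 4.36 for CGATA, 7.85 ± 0.139 for Motif 1, −6.20 ± 2.39 for GAGAG and −12.0 ± 3.43 for the TATA box (SD, n = 3). Each had the same sign in 3 of 3 replicates (exact sign-flip permutation p = 0.25, the smallest possible; the 6 motifs were not adjusted for number, since none can pass). For CAGCTG the sign differed between replicates (0.977 ± 1.19, p = 0.5 by the same permutation test). Since summits of ribosomal protein genes lie nearer the TSS, the counts were repeated on summits within 50 bp of a TSS, a check chosen after seeing the data. There the DRE was at 10 of 46 ribosomal protein summits (21.7%), against 8.75% of 343 others. In the replicates the DRE difference was then 8.50 ± 10.1 points and turned negative in replicate 3 (−3.19; exact permutation p = 0.5), and CGATA did likewise (9.58 ± 9.41; −0.387 in replicate 3). Motif 1 stayed higher in 3 of 3 replicates (10.5 ± 3.88). GAGAG stayed lower in 3 of 3 replicates (−6.71 ± 2.74). The TATA box difference shrank to −6.80 ± 6.51 and was only −0.345 in replicate 1.

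**Figure D5:**
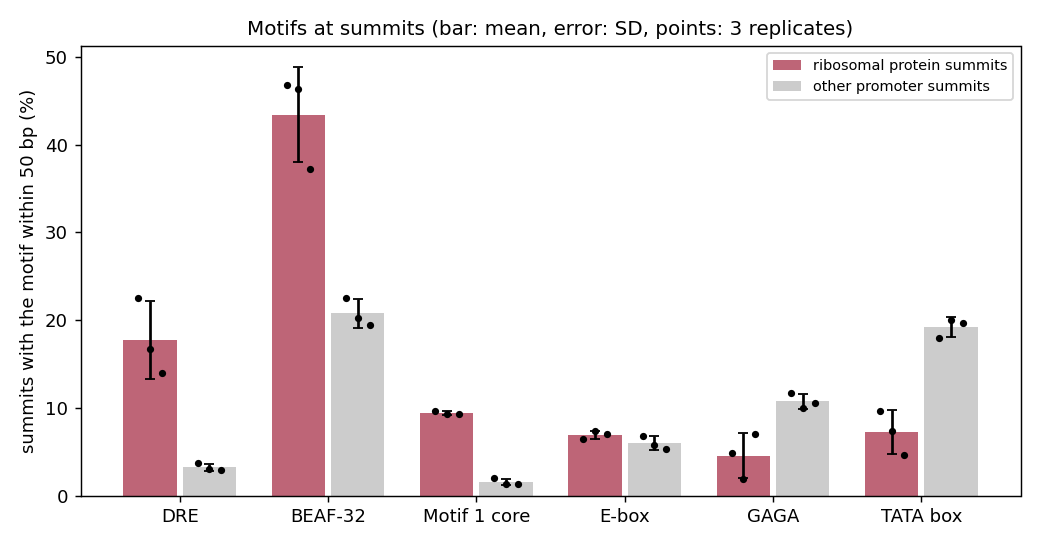
Percentage of summits in the top regions with each motif within 50 bp, for ribosomal protein genes (left bar of each pair) and other promoters (right bar). BEAF-32 stands for its short core and GAGA and E-box for the words given in the text; bars are means, error bars SD and points the 3 replicates. DRE, BEAF-32 and Motif 1 are higher at ribosomal protein summits, and GAGA and the TATA box lower.

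Summit windows of ribosomal protein genes were also richer in G and C. A and T made up 52.2% of bases at 59 ribosomal protein summits, against 63.6% at other promoter summits. In the replicates the shares were 51.9%, 53.6% and 53.6%, against 62.3%, 63.9% and 63.9%. The difference was −10.3 ± 0.0912 percentage points (SD, n = 3; exact sign-flip permutation p = 0.25, the smallest possible), very even between replicates. For summits within 50 bp of a TSS it was −7.09 ± 1.53. Over TSS windows, 54.9% of bases were A or T at ribosomal protein genes and 56.3% at all genes, so the gap was small there. The single windows ranged from 39.6% at RpL22 to 82.2% at RpL23, with a median of 51.5%. The part of base composition in the ranks was not tested.

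The 12 genes with a DRE at the summit were RpL41, RpS25, RpL28, RpS29, RpL27, RpL19, RpL37-1, RpS12, RpS6, RpL39, RpL36 and RpL26, which span ranks 266 to 3260. The centre of the DRE lay a median of 15 bp and at most 44 bp from the summit, and upstream of the TSS in 10 of the 12. Counted at the TSS, 10 of 15 ribosomal protein genes with a DRE were occupied (66.7%), against 49 of 78 without (62.8%). For CGATA the shares were 69.2% with it and 59.3% without. With Motif 1, 7 of 13 were occupied (53.8%), against 52 of 80 without (65.0%). Among other protein-coding genes, 23.6% were occupied with a DRE at the TSS and 15.01% without. Their shares were 21.1% with CGATA and 13.1% without, and 21.1% with Motif 1 and 15.2% without. For Motif 1 the family thus went the opposite way to other genes, although only 13 of its genes had the motif.

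The windows of 5 of them are printed with the DRE in capitals, to show where it stands, and were chosen after the counts were seen. They are on dm6, in the direction of transcription, with exons removed. RpS25 is from chr3R:11216288-11216384 (minus strand), RpL28 from chr3L:3222961-3223057 (minus strand), RpL27 from chr3R:25685052-25685118 (minus strand), RpL37-1 from chrX:15139414-15139514 (minus strand) and RpS12 from chr3L:13023282-13023351 (plus strand).
RpS25: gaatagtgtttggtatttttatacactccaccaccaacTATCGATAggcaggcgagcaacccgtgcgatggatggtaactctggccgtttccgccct
RpL28: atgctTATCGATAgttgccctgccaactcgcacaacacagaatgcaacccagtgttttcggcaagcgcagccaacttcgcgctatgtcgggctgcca
RpL27: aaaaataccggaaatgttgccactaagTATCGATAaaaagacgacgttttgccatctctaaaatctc
RpL37-1: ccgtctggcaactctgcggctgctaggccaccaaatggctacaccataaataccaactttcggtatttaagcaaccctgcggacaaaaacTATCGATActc
RpS12: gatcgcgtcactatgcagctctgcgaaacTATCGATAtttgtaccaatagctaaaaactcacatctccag
From the summit, with minus upstream, the centre of the DRE lay at −9 bp in RpS25, −42 bp in RpL28, −20 bp in RpL27, 43 bp in RpL37-1 and −18 bp in RpS12. It was upstream of the TSS in each of these 5, by 56, 89, 37, 54 and 38 bp in that order.

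The TCT start was looked for as TCTTT on the sense strand within 10 bp of a TSS. It was present at 53 of 93 ribosomal protein genes (57.0%), against 3.02% of other protein-coding genes. Of the 53, 37 were occupied (69.8%), against 22 of the 40 without it (55.0%). Among other genes the shares were 20.5% with the word and 15.4% without. Large-subunit genes were occupied in 24 of 32 cases with it and 12 of 22 without, and small-subunit genes in 13 of 21 and 10 of 18.

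Other genes of the translation system were occupied in part. Of a list of 12 translation genes, 6 were occupied (50%), against 15.8% of all protein-coding genes. These were eEF1gamma at rank 500 (249, 432 and 2119 in the replicates), pAbp at 615 (4215, 881 and 954) and Rack1 at 899 (516, 1343 and 2079). The others were eEF1alpha1 at 2052 (1036, 2247 and 6517), eEF5 at 2509 and eEF2 at 2712 (2221, 3070 and 3057). For eEF5 the ranks were 957 and 3581 in replicates 1 and 2, with no region in replicate 3. The pAbp summit lay 489 bp downstream of its TSS, near the edge of the 500 bp window. The offset was −40 bp at eEF1gamma, −24 bp at Rack1, −81 bp at eEF1alpha1, 8 bp at eEF5 and 2 bp at eEF2. A summit close to the TSS was therefore not particular to ribosomal protein genes. The rank was best in replicate 1 and lowest in replicate 3 at eEF1gamma, Rack1 and eEF1alpha1, whereas pAbp had its lowest rank in replicate 1 and eEF2 was lowest in replicate 2. Of 24 genes listed by symbol for ribosome biogenesis, 9 were occupied (37.5%). The list was not checked for function, and the 9 include Rrp1 and bel, which may not belong in it. Among the 9, eIF6, which keeps the large subunit from joining too early, was at rank 35 (41, 28 and 39). The nucleolar GTPase gene Ns2 was at 209 (236, 188 and 258). These 2 were level across replicates.

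Of 8 genes listed as possible regulators of the family, a role not tested here, 4 were occupied (50%), against 15.8% of all protein-coding genes. They were M1BP at rank 876, Dref at 1978, mor at 2251 and Mnt, a Myc antagonist, at 3455. The peak of Dref is the same as that of RpL13, and the TSSs of these genes lie 84 bp apart on opposite strands. Its summit was at −10 bp from the TSS of RpL13 and −74 bp from that of Dref, so it was nearer RpL13. Genes for mitochondrial ribosomal proteins, which serve a separate ribosome, were occupied in 22 of 73 cases (30.1%).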

How the data were processed

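Deposited region lists of 3 biological replicates, their pool and the reproducible set were read on dm6. Lists on dm3 were not used and nothing was converted between assemblies. Per the labels and the deposited lists, the signal of a region is the score of the authors' peak caller, and the q values are deposited as −log10 values (all 3.88 in the reproducible set). The deposited summit column is the distance from the region's start. Which aligner and caller were used is not given in the sources used here. Depth is unknown.

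TSSs came from Ensembl release 115 gene models and sequence from the Release 6 genome of RefSeq; none from arm 2R, where RpL41 lies, is printed. Python 3.11.15, numpy 2.4.6, pandas 2.3.3, scipy 1.17.1 and matplotlib 3.10.9 were used. For each gene the strongest summit within 500 bp of a TSS was taken. Overlaps needed 1 bp. Replicates were compared by exact 2-sided sign-flip permutation, and scripts were tested on simulated data.

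Members, lists, motifs and settings were chosen with earlier results of these data known. Named genes were the 12 of highest signal, those nearest the threshold, the 5 of largest rank spread, those in no list, duplicated genes, the stalk, ubiquitin-fusion, 5S-binding, RpS6 and sta genes, and those with a nearer opposite-strand TSS. Others were chosen after their values were seen. Of the pathway symbols, 1 biogenesis gene and 2 regulators had no match. Alternatives changed the window, the TSS, the number of top regions, the overlap, the signal threshold, the duplicated genes and the replicates. A few single genes are counted in the totals but not reported here by name.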

Additional observations from a re-analysis of the deposited data

How the results depend on the processing

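The excess of ribosomal protein over other genes kept its sign in each setting run: 25.6 percentage points with a halved number of top regions, 45.8 with 2 times as many, and 37.1 to 46.7 leaving out a replicate. The occupied share of 63.4% came to 38.7% with peaks above the median signal, 39.8% with top regions of all 3 replicates and 38.7% with that and a 50% overlap; these settings accept fewer peaks. Leaving out replicate 1, with peaks required in the top regions of the remaining pair, gave 41.9%; leaving out replicate 2 gave 43.0% and leaving out replicate 3 55.9%. The large minus small difference of 7.69 points came to 2.28 with top regions of all 3 replicates, 0.427 with a 50% overlap and 3.99 with a 250 bp window, and to 3.42 without replicate 2 (leave-one-out range 3.42 to 7.98); the cause was not tested. Averaged over replicates it was 6.70 to 10.3 with a replicate left out. The median offset was −43 to −24.8 bp over all settings and −38 to −27 bp with a replicate left out; measuring from the 5'-most TSS (−24.8 bp) was chosen after seeing the data. The median rank was 2149 to 2795 with a replicate left out. These averages kept their direction, but for large minus small the replicates differed in sign with the nearest TSS, a 1000 bp window and 2 times as many top regions. Among summits near a TSS the E-box difference was −3.27 points, against 0.977 over all. No paired analysis was possible because there is a single group. Depth is unknown, so a missing region cannot be told from one below detection.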
